A study of Mus musculus with 4 samples.

Results

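The Myc, Max and Mxd network is a family of transcription factor genes, described here in Kdm2b knockdown and control mouse embryonic stem cells. The 10 genes were taken by name: Myc, Mycn, Max, Mxd1, Mxd3, Mxd4, Mxi1, Mnt, Mlx and Mga. Each was measured by 1 probe set whose annotation gave that single symbol, and together they are 10 of the 19938 genes tested. The cells were E14, an embryonic stem cell line of an inbred 129 strain, cultured on gelatin in serum medium with leukemia inhibitory factor (LIF). There were 2 arrays of Kdm2b knockdown cells and 2 of control cells, and the protocol given for all 4 was transduction with lentiviral vectors followed by puromycin selection. The knockdown sequence, the insert of the control vector and the length of the selection are not stated here. Total RNA was hybridised to Affymetrix MoGene 1.0 ST arrays. The labels number the replicates without saying whether these were separate cultures, so each p-value measures only the spread between the arrays, which may be technical.

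Proteins of this network share a basic helix-loop-helix leucine zipper domain and bind DNA as dimers. Myc and Mycn pair with Max on E-boxes, whose core letters are CACGTG, and activate genes of growth and ribosome production. Mxd1, Mxd3, Mxd4, Mxi1 and Mnt compete for Max and recruit Sin3 co-repressors, Mga pairs with Max inside a variant Polycomb complex (PRC1.6), and Mlx pairs with the glucose-responsive Mondo proteins Mlxip and Mlxipl. In embryonic stem cells Myc and Mycn sustain proliferation and self-renewal, and Max and Mga hold germline genes silent. Kdm2b, a histone demethylase that binds unmethylated CpG-rich DNA, belongs to another variant of Polycomb repressive complex 1 (PRC1), and the series addresses how that complex reaches the CpG islands of lineage genes.

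Kdm2b itself had log2 values of 9.20 and 9.19 on the knockdown arrays, against 10.74 and 10.64 on the control arrays, a level 2.82-fold lower in knockdown cells. The stem cell identity of the cultures was checked with 10 markers, which averaged 13.1 and 13.2 on the knockdown arrays and 13.2 and 13.1 on the control arrays. With limma and a Benjamini-Hochberg adjusted p under 0.05 as the threshold, 0 of these markers were called in either direction, beside 12.2% of all genes. Of the 10, 4 had an unadjusted p under 0.05, beside 29.8% of all genes. Of 10 markers of primitive endoderm, a lineage that can arise in such cultures, 4 were higher, 0 lower and 6 neither, beside 5.00% higher and 7.19% lower among all genes. Their mean log2 values were 10.1 and 10.5 in knockdown and 9.71 and 9.50 in control cells. Of 10 fibroblast and feeder markers 0 were higher and 2 lower, against the same shares, with mean log2 values of 8.73 and 8.72 in knockdown against 8.78 and 8.79 in control cells. An unadjusted p under 0.05 was found for 8 of the primitive endoderm markers and 2 of the fibroblast and feeder markers, beside 29.8% of all genes. Across probe sets the correlation was 0.9966 between the knockdown arrays and 0.9963 between the control arrays, and 0.9922 to 0.9936 for a knockdown with a control array.

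Of the 10 network genes, Myc and Mlx rose after Kdm2b knockdown, Mnt and Mga fell, and 6 passed the threshold in neither direction. Over all genes tested 12.2% were called, 5.00% higher and 7.19% lower. For 7 of the 10 the knockdown and control arrays did not overlap, 5 higher and 2 lower in knockdown cells. Among all genes 58.8% had arrays that did not overlap, 33.8% higher and 25.0% lower, and 7 of 10 is close to that background. The median change of the 10 was 0.065 on the log2 scale, beside 0.03 over all genes. In this fit of all 4 arrays 5 of the 10 had an unadjusted p under 0.05, beside 29.8% of all genes. All 10 had a mean log2 value above 8.52, and many of the genes tested did not. In a fit limited to the 11516 genes above that value, 5 of the 10 had an unadjusted p under 0.05, beside 38.9%. That fit called 3 of the 10 higher and 2 lower, beside 1011 higher and 1518 lower of the 11516. With any 1 of the 4 arrays left out, limma called 0 of the 10 and 0 of all genes. Of the 10, 4 had an unadjusted p under 0.05 without knockdown replicate 2, beside 21.1% of all genes, and 5 without any other single array, beside 17.5% to 20.2%. The fit with the replicate number as a block and the fit of every probe set also called 0 of all genes. Each call given here for Kdm2b, for the network or for a listed gene was thus lost in those fits. The block fit had 1 residual degree of freedom, as did the fits without 1 array. The loss of every call in them therefore does not set any gene apart.

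**Figure D1:**
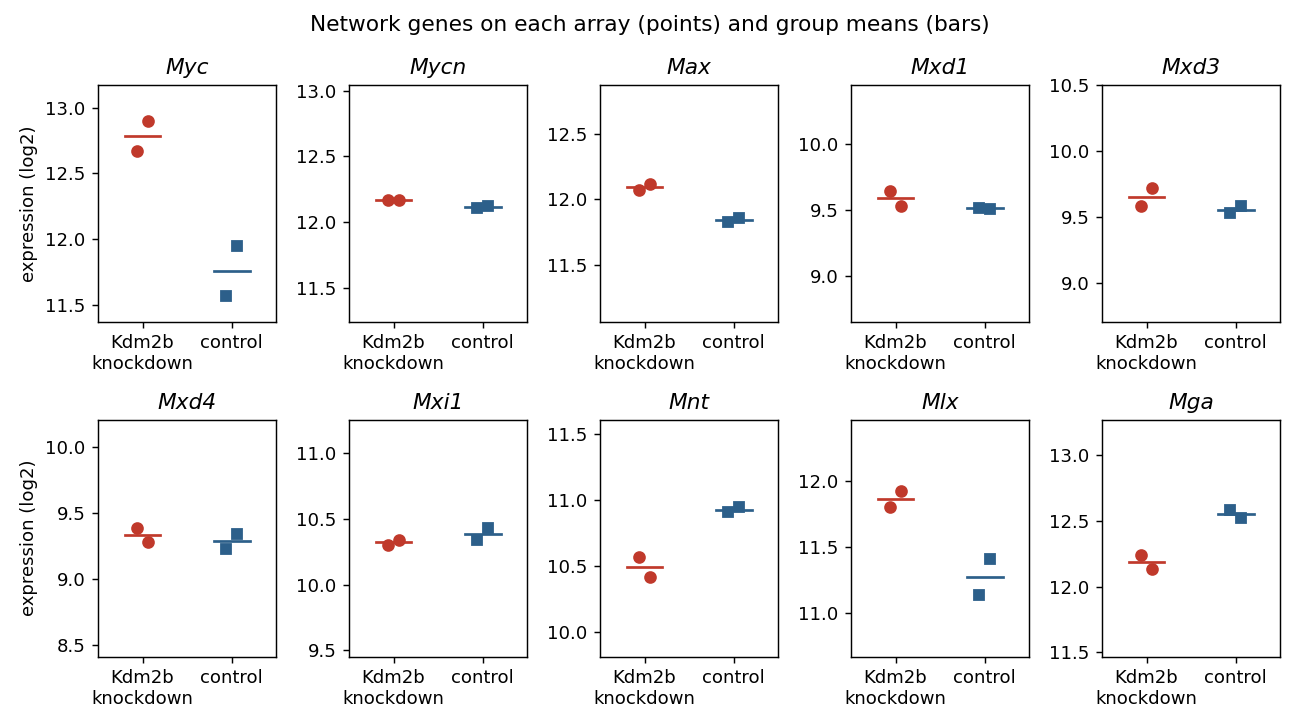
Log2 expression of the 10 network genes on each array, with knockdown arrays as circles, control arrays as squares and the group mean as a bar; every panel spans the same log2 range. Myc stands at 12.67 and 12.90 in knockdown against 11.57 and 11.95 in control cells, and the arrays of Mxd3, Mxd4 and Mxi1 overlap or touch.

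Myc, the founding activator of the network, had log2 expression of 12.67 and 12.90 on the knockdown arrays, against 11.57 and 11.95 on the control arrays. Both knockdown arrays lay above both control arrays, and the gap of 0.72 between the groups exceeded the 0.38 between the control replicates. The mean was 12.785 ± 0.163 in knockdown and 11.76 ± 0.269 in control cells (SD, n = 2 each). Myc thus rose by 1.025 on the log2 scale (SE 0.142, 95% interval 0.68 to 1.37, adjusted p = 0.0136, limma), a 2.03-fold higher level, and 111 of all genes had a change of larger size. Its control arrays were unusually far apart, since 1.21% of genes had a larger gap between the control replicates. Leaving out knockdown replicate 1 gave 1.14 and knockdown replicate 2 gave 0.91 (adjusted p = 0.241 and 0.216, limma), and leaving out control replicate 1 gave 0.835 and control replicate 2 gave 1.215 (0.258 and 0.201). Of the 10 primitive endoderm markers 4 were also called higher, with mean levels as given above, and their part in this and the following results was not tested. In RNA from whole cultures, more cells of a type and more RNA per cell cannot be told apart.

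Mycn, the paralog that can stand in for Myc in stem cells, read 12.17 on each knockdown array, against 12.11 and 12.12 on the control arrays. The knockdown arrays lay above the control arrays, but by only 0.05. Its log2 difference was 0.055 (SE 0.0594, adjusted p = 0.581, limma), with a 95% interval from -0.09 to 0.20 that ends below the lower end of the interval of Myc. Max, the obligate partner, had 12.07 and 12.12 in knockdown against 11.83 and 11.86 in control cells. Its arrays did not overlap and its replicates lay within 0.05 of each other. The difference of Max was 0.25 (SE 0.0617, 95% interval 0.10 to 0.40), and its adjusted p of 0.0537 (limma) did not pass. It passed after quantile normalization (0.0436), with the fit limited to genes whose mean log2 value was above 8.52 (0.0363) and with an intensity trend in limma's prior (0.0343), but not after median centring (0.0918), with the replicate block (0.134) or with every probe set tested (0.132).

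The Mxd genes, whose proteins are antagonists of Myc, had small differences. Mxd1 had log2 values of 9.65 and 9.53 in knockdown against 9.52 and 9.51 in control cells, so that the groups were 0.01 apart. Mxd3 had 9.58 and 9.72 in knockdown against 9.53 and 9.58 in control cells, with the lowest knockdown array level with the highest control array. Mxd4 had 9.39 and 9.28 in knockdown against 9.23 and 9.34 in control cells, which overlap. Mxi1, also known as Mxd2, had 10.30 and 10.34 in knockdown against 10.34 and 10.43 in control cells, and these touch. The log2 differences were 0.075 for Mxd1, 0.095 for Mxd3, 0.05 for Mxd4 and -0.065 for Mxi1, with adjusted p-values between 0.433 and 0.698 (limma). Their 95% intervals ran from -0.09 to 0.24 for Mxd1, from -0.09 to 0.28 for Mxd3, from -0.13 to 0.23 for Mxd4 and from -0.23 to 0.10 for Mxi1.

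Mnt, a broadly expressed repressor that binds Max and competes with Myc, fell. It had log2 values of 10.57 and 10.42 on the knockdown arrays, against 10.91 and 10.95 on the control arrays. Both knockdown arrays lay below both control arrays, with 0.34 between the groups and at most 0.15 between replicates. The mean was 10.495 ± 0.106 in knockdown and 10.93 ± 0.0283 in control cells (SD, n = 2 each), a log2 fold change of -0.435 (SE 0.0746, 95% interval -0.62 to -0.25, adjusted p = 0.0211, limma), or 1.35-fold lower. Mga, the large protein that carries both a T-box and a helix-loop-helix domain, also fell. Its log2 values were 12.24 and 12.13 in knockdown against 12.58 and 12.52 in control cells, again with no overlap. The means of 12.185 ± 0.0778 in knockdown and 12.55 ± 0.0424 in control cells (SD, n = 2 each) gave -0.365 (SE 0.0696, 95% interval -0.54 to -0.19, adjusted p = 0.0281, limma), 1.29-fold lower.

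Mlx, the Max-like partner of the Mondo proteins, had log2 values of 11.80 and 11.92 in knockdown against 11.13 and 11.41 in control cells. Both knockdown arrays were higher than both control arrays, by at least 0.39, and the control replicates were 0.28 apart. It averaged 11.86 ± 0.0849 in knockdown and 11.27 ± 0.198 in control cells (SD, n = 2 each) and rose by 0.59 on the log2 scale (SE 0.107, 95% interval 0.33 to 0.85, adjusted p = 0.0243, limma), 1.51-fold. On Mlx, as on Myc, control replicate 1 read lower than control replicate 2. Leaving out control replicate 1 gave 0.45 for Mlx, and leaving out control replicate 2 gave 0.73. Over the 4 called genes, leaving out any 1 array gave adjusted p-values from 0.197 to 0.267, and the sign stayed as it was in every case. In a fit of all 35557 probe sets, named or not, limma called 0 of the 10 network genes and 0 of all genes. There 5 of the 10 had an unadjusted p under 0.05, beside 24.7% of all genes, with adjusted p-values from 0.0841 to 0.106 for these 4.

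**Figure D2:**
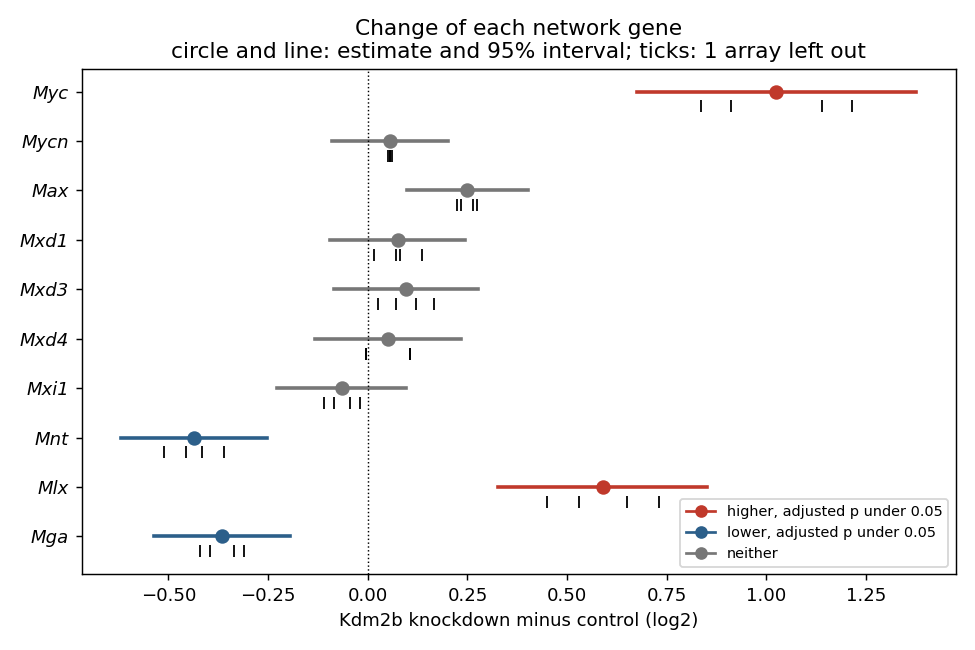
Difference of each network gene between knockdown and control cells on the log2 scale, with limma's 95% interval as a line and the values with 1 array left out as ticks. Myc (1.025) and Mlx (0.59) lie to the right of 0 and Mnt (-0.435) and Mga (-0.365) to the left, and the intervals of Mycn, Mxd1, Mxd3, Mxd4 and Mxi1 include 0. The interval of Max, 0.10 to 0.40, excludes 0, although Max was not called.

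The remaining genes of the extended network passed the threshold in 0 of 4 cases, beside 12.2% of all genes. Mycl, the third Myc paralog in mammals, had log2 values of 9.38 and 9.09 in knockdown against 9.16 and 9.32 in control cells, which overlap. Mycs, an intronless rodent gene of the Myc family, had 8.65 and 8.61 in knockdown against 8.52 and 8.56 in control cells. Mlxip, a partner of Mlx, read 11.49 on each knockdown array, against 11.45 and 11.47 on the control arrays. Mlxipl, the other partner, had 10.25 and 10.30 in knockdown against 10.21 and 10.23 in control cells. The 4 log2 differences ran from -0.005 for Mycl to 0.09 for Mycs, and 0 had an unadjusted p under 0.05 in limma, beside 29.8% of all genes.

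Promoter sequence was examined because the network's own proteins bind E-boxes and Kdm2b binds CpG-rich DNA. RefSeq windows of 300 bases on GRCm38.p6, from 250 before to 50 after the start site, were found for 9 of the 10 genes, all except Myc, and Mxi1 had 3 of the 11 windows. The letters CACGTG, which read the same on both strands, occurred once each in the windows of Mlx, Mnt, Max and Mxd4. Of all 32851 windows 7.15% hold these letters, of windows of genes tested 8.24%, and of windows of genes tested with at least 14 CpG dinucleotides, the lowest number in the network, 11.4%. The stretches of 60 bases around these E-boxes are shown because 2 of these 4 genes were called, in opposite directions, and the CACGTG is in capitals. They lie at chr11:101087223-101087282 (+) for Mlx, chr11:74830774-74830833 (+) for Mnt, chr12:76962219-76962278 (-) for Max and chr5:34187897-34187956 (-) for Mxd4, and each is written 5′ to 3′ on the strand of its gene.
Mlx: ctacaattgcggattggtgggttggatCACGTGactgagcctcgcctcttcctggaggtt
Mnt: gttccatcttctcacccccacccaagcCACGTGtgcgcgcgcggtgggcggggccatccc
Max: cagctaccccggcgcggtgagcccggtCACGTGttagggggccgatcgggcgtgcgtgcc
Mxd4: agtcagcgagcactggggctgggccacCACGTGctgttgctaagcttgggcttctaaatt
The E-box of Mlx begins 40 bases before the start site, that of Mnt 123 before, that of Mxd4 219 before, and that of Max spans the start site, beginning 3 before it. Mlx rose and Mnt fell, while Max and Mxd4 did not pass, so that the 4 genes with these letters did not share a direction. A match in a window is a description and not a bound site.

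The windows of the network held 14 to 49 CpG dinucleotides, beside a median of 15 for windows of genes tested. Mycn had the fewest, 14, and Mlx and Mxd4 had 18 each. Mga had 24, Mxd3 25, Max 30, Mnt 32 and Mxd1 39, and the windows of Mxi1, the last 2 of which overlap, had 17, 21 and 49. The 2 genes that fell, Mga and Mnt, had more CpG than 71.0% and 86.4% of windows of genes tested, and Mlx, which rose, more than 56.7%. Mxd1, with more than 93.7%, had a difference of 0.075 and was not called. Max, with more than 83.3%, was not called either. Nor was Mxi1, whose window with 49 had more than 98.6% and whose others had more than 54.2% and 63.9%. The 250 bases before the start site are shown for the called genes that have a window, with every CG in capitals, at chr11:101087040-101087289 (+) for Mlx, chr11:74830674-74830923 (+) for Mnt and chr2:119896978-119897227 (+) for Mga.
Mlx: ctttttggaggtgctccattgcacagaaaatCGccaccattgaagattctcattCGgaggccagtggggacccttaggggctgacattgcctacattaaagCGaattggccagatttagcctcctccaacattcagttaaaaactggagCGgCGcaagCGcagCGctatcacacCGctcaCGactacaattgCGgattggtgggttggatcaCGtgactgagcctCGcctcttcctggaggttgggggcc
Mnt: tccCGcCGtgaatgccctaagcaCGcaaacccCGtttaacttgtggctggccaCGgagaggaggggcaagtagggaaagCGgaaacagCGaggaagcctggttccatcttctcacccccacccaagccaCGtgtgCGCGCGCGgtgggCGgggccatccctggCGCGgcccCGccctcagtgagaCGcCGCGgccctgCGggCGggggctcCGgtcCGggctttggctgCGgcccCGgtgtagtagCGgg
Mga: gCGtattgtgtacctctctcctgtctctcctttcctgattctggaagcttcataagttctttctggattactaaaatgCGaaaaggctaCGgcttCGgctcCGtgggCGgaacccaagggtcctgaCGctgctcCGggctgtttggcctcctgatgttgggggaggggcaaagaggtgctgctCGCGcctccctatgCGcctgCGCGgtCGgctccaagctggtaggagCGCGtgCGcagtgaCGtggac
In these 250 bases Mlx has 12 CpG dinucleotides, Mnt 26 and Mga 18.

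**Figure D3:**
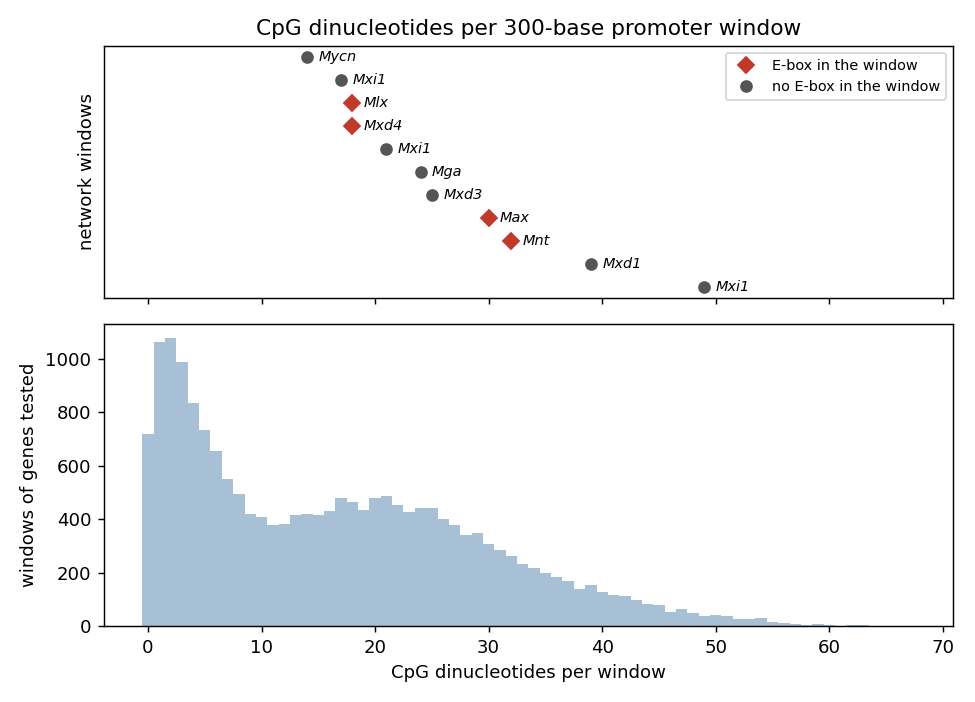
CpG dinucleotides in the 11 RefSeq promoter windows of 9 network genes (top, 1 symbol a window, diamonds where the window holds an E-box) and in all windows of genes tested (bottom, number of windows). The network's windows lie between 14 and 49, outside the large group of CpG-poor windows at the left.

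Of 43 genes known to be activated by Myc, 3 were higher, 0 lower and 40 neither, beside 5.00% higher and 7.19% lower among all genes. Their median log2 fold change was 0.04, beside 0.03 over all genes. An unadjusted p under 0.05 (limma) was found for 8 of the 43, beside 29.8% of all genes in either direction. All 8 of these were higher in knockdown cells. Ccnd2, a D-type cyclin, had log2 values of 11.75 and 11.84 in knockdown against 10.63 and 10.65 in control cells. It rose by 1.155 (SE 0.0651, adjusted p = 0.0049, limma), with the groups 1.10 apart. Tfrc, the transferrin receptor, rose by 0.575 and the histone-binding ribosome factor Grwd1 by 0.34. Eif4a1, a translation initiation helicase, had a difference of 0.04, and Ldha, lactate dehydrogenase, -0.11, and neither was called. Knockdown and control arrays were apart in the higher direction for 23 of the 43 and in the lower direction for 4, beside 33.8% and 25.0% of all genes.

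Of 12 listed genes known to be repressed by Myc, Cdkn1a was not measured. Of the other 11, 2 were higher, 2 lower and 7 neither, beside 5.00% higher and 7.19% lower among all genes. Their median was -0.065 on the log2 scale, beside 0.03 over all genes. An unadjusted p under 0.05 (limma) was found for 7 of the 11, beside 29.8% of all genes. Gata6, a regulator of primitive endoderm that Myc represses in pluripotent cells, had 11.74 and 12.60 in knockdown against 10.07 and 10.04 in control cells, and rose by 2.115 (SE 0.257, adjusted p = 0.0103, limma). Its knockdown replicates were 0.86 apart, and its control replicates 0.03. Cdkn2b, a CDK inhibitor, rose by 0.61, while the stress-responsive Ndrg2 fell by 0.60 and the growth factor receptor gene Pdgfrb fell by 0.52. Cdkn1b, another CDK inhibitor, had a difference of -0.195 and Gadd45b, a stress response gene, 0.10, and neither was called. As the mean of its 2 probe sets Cdkn1b stood at -0.345 (adjusted p = 0.144, limma). Gata6 is also among the primitive endoderm markers and Pdgfrb among the fibroblast markers counted above.

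Of 12 genes known as targets of Mlx and the Mondo proteins, mostly from liver and other metabolic tissues, 0 were higher, 3 lower and 9 neither. Among all genes 5.00% were higher and 7.19% lower. Their median was -0.185 on the log2 scale, beside 0.03 over all genes. The arrays were apart in the lower direction for 9 of 12, beside 25.0% of all genes, and in the higher direction for 3, beside 33.8%. An unadjusted p under 0.05 (limma) was found for 8 of the 12, beside 29.8% of all genes. These 8 went in both directions. Among them Fasn had a difference of 0.31 and Gpd1 of 0.20 (adjusted p = 0.0731 and 0.1078, limma), and neither was called. Arrdc4, an arrestin-related gene and a main Mondo target, had 11.25 and 11.47 in knockdown against 12.11 and 11.78 in control cells. It fell by 0.585 (SE 0.13, adjusted p = 0.0409, limma), and the groups were 0.31 apart with 0.33 between its control replicates. Tkfc, a triose kinase of fructose metabolism, fell by 0.41 and Pklr, the liver pyruvate kinase, by 0.31. Txnip, the thioredoxin-interacting paralog of Arrdc4, had 13.11 and 13.07 in knockdown against 13.30 and 13.51 in control cells. Its difference of -0.315 had an adjusted p of 0.0695 (limma), and passed after median centring of the arrays (0.0366) and with an intensity trend in the prior (0.037). It did not pass after quantile normalization (0.057), with dim genes removed (0.0524), with the replicate block (0.1805) or with every probe set tested (0.1695). Elovl6, a fatty acid elongase, had a difference of 0.095.

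**Figure D4:**
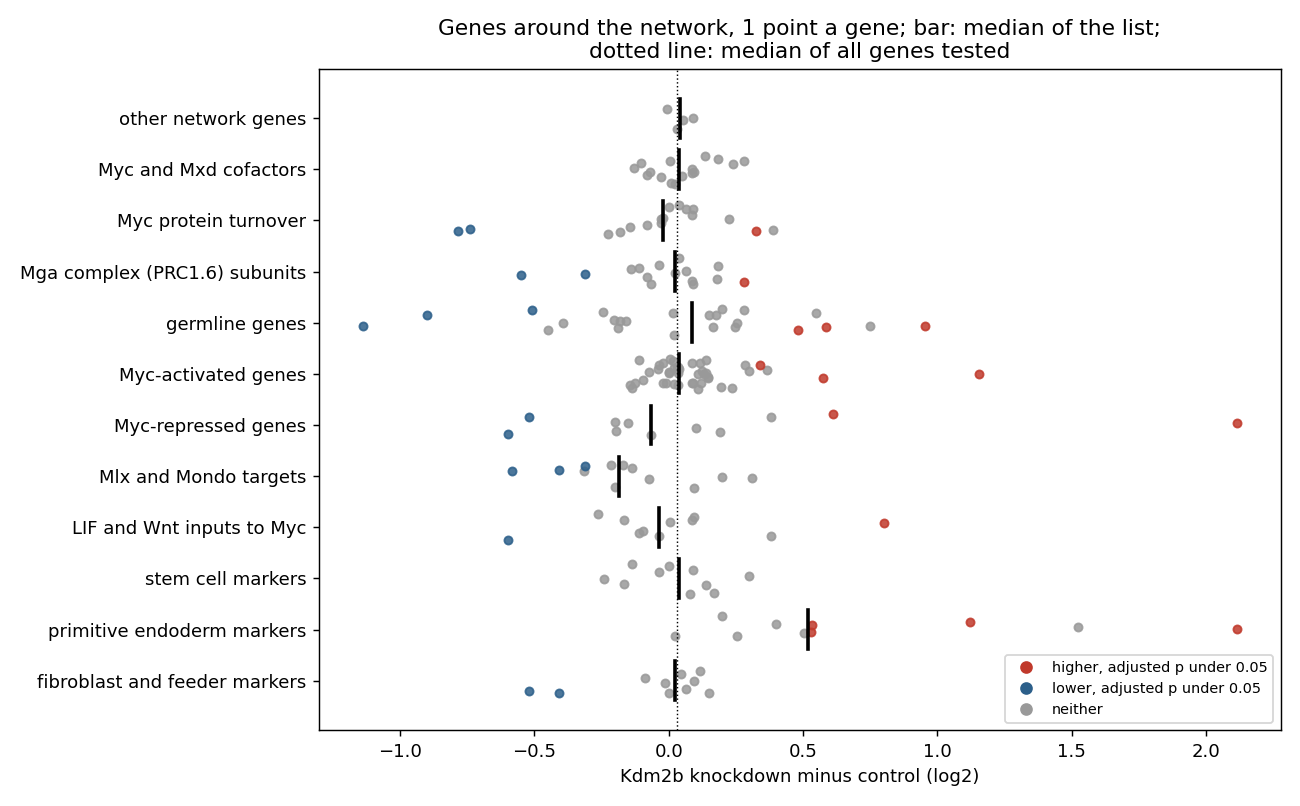
Log2 difference between knockdown and control cells for each measured gene of the lists around the network and of the cell type markers, with the list median as a bar and the median of all genes (0.03) as a dotted line. Targets of Mlx and the Mondo proteins have a median of -0.185, and primitive endoderm markers lie to the right, with a median of 0.52.

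The complex that holds Mga and Max, PRC1.6, had 1 subunit higher, 2 lower and 12 neither of 15, beside 5.00% higher and 7.19% lower among all genes. The median was 0.025, close to the 0.03 over all genes. An unadjusted p under 0.05 (limma) was found for 4 of the 15, beside 29.8% of all genes. Tfdp2, a partner of E2F factors, fell by 0.55 (SE 0.0843, adjusted p = 0.0163, limma), with log2 values of 11.74 and 11.64 in knockdown against 12.33 and 12.15 in control cells. Yaf2, a subunit of several variant PRC1 complexes, fell by 0.31. Ring1, a ubiquitin ligase subunit of PRC1 at large, had a difference of 0.28 and an adjusted p of 0.0499 (limma). That call was lost after quantile normalization (0.0513), after median centring (0.0786) and with an intensity trend (0.0553), as well as with the replicate block (0.132) and with every probe set tested (0.133). The PRC1.6 genes with the highest readings that were not called, Hdac1, a histone deacetylase, and Rybp, a RING1-binding subunit, had differences of -0.08 and 0.065.

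A list of 24 genes held germline genes, a class in which Mga and Max keep members silent in stem cells. It also held, as the somatic counterpart of Smc1b, the general cohesin gene Smc1a, which was not called. Of the 24, 16 had a mean log2 value above 8.52, so the list was not confined to genes with low readings. Of the 24, 3 were higher, 3 lower and 18 neither, beside 5.00% higher and 7.19% lower among all genes. The median was 0.085, beside 0.03. An unadjusted p under 0.05 (limma) was found for 15 of the 24, beside 29.8% of all genes. Dazl, a germ cell RNA-binding protein gene, had 10.31 and 9.94 in knockdown against 9.12 and 9.22 in control cells, and rose by 0.955 (SE 0.126, adjusted p = 0.0121, limma). Syce1, of the synaptonemal complex, rose by 0.585 and Asz1, of the piRNA pathway, by 0.48, and Asz1 had a low reading (mean log2 value 6.32). Sycp3, another synaptonemal complex gene, had 9.61 and 9.84 in knockdown against 10.98 and 10.75 in control cells, and fell by 1.14 (SE 0.112, adjusted p = 0.0068, limma). Stra8, which licenses entry into meiosis, fell by 0.90, also at a low reading (8.48), and the meiotic cohesin gene Smc1b by 0.51. Mael, a piRNA pathway gene, had a difference of 0.02 and the cohesin gene Stag3 -0.18, and neither was called. On the control arrays Mael read 12.18 and 12.19, and Stag3 12.14 and 12.04.

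Among 16 cofactors of Myc and of the Mxd proteins limma called 0, beside 12.2% of all genes. Of the 16, 3 had an unadjusted p under 0.05, beside 29.8% of all genes. The differences of the 16 ran from -0.13 for Kat5, an acetyltransferase, to 0.28 for Sap30, a Sin3 complex subunit. Hdac1 stood at -0.08 and Kat2a, an acetyltransferase bound by Myc, at 0.135. Of 17 genes that set the stability of Myc proteins, 1 was higher, 2 lower and 14 neither, beside 5.00% higher and 7.19% lower among all genes, with a median of -0.02, beside 0.03. An unadjusted p under 0.05 was found for 7 of the 17, beside 29.8% of all genes. Pim1, a kinase that stabilises Myc, had log2 values of 12.12 and 12.19 in knockdown against 12.95 and 12.93 in control cells, and fell by 0.785 (SE 0.063, adjusted p = 0.0055, limma). Usp28, a deubiquitinase known to protect Myc from degradation, had 12.28 and 12.13 in knockdown against 12.90 and 12.99 in control cells, and fell by 0.74 (SE 0.0782, adjusted p = 0.0078, limma). Fbxw7, the ubiquitin ligase subunit that targets Myc, rose by 0.325 with an adjusted p of 0.0449 (limma), and stood at 0.2275 with an adjusted p of 0.0768 as the mean of its probe sets. Ppp2ca, a catalytic phosphatase subunit, had a difference of -0.02 and the mitotic kinase Plk1 0.04. The arrays measure RNA, so the protein levels of Myc and its partners were not measured.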

How the data were processed

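The authors deposited log2 expression values for 35557 probe sets on each of 4 arrays. Per the submitters' processing notes they used Affymetrix Expression Console; how it corrected background, scaled the arrays and summarised probes is not given in the sources used here. The log2 scale, with no centring per gene, was inferred from the values, whose medians were 8.55 and 8.53 in knockdown and 8.49 and 8.51 in control arrays. The number of arrays limits the precision.

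Of the probe sets, 21789 had 1 symbol in the platform annotation, 1621 several and 12147 no entry; 21698 matched the GRCm38.p6 RefSeq table by Entrez ID. The brightest probe set stood for each of 19938 genes. Knockdown was compared with control in limma 3.58.1 (R 4.3.3; lmFit, eBayes, group only, two-sided, Benjamini-Hochberg over 19938 genes), after a test on simulated data. SE and 95% intervals are limma's moderated ones. Each gene of the network, of its extension, and up to 6 called and 2 bright uncalled genes of each list were to be named. Kat5, Sap30, Fasn and Gpd1 were chosen after their values were seen and are outside the counts of named genes. The members and lists were chosen with earlier results of these data known. Lists were not tested as sets. All measured genes of the Myc-activated, cofactor, turnover, PRC1.6 and LIF and Wnt lists had a mean log2 value above 8.52. The shares over all genes printed beside these lists include dimmer genes. In the fit limited to genes above 8.52, 38.9% had an unadjusted p under 0.05. Some listed genes are not analysed here. Promoter windows came from RefSeq. Alternatives were a replicate block, leaving out each array, quantile normalization, median centring, removal of genes with a mean log2 value under 8.52, the mean of probe sets, every probe set, a trended or robust prior and an adjusted p under 0.1.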

Additional observations from a re-analysis of the deposited data

How the results depend on the processing

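With the replicate number as a block, limma called 0 network genes higher and 0 lower, against 2 and 2, and 0 of all genes, with 5 of the 10 at an unadjusted p under 0.05 (27.1% of all genes) and adjusted p-values of 0.127 for Myc, Mlx and Mga and 0.135 for Mnt. That fit left 1 residual degree of freedom. Same-numbered arrays deviated together with a correlation of 0.0954 across genes, and the labels name no pairing. With any 1 array left out (1 residual degree of freedom, the lone array taken to vary like the other group) the counts ranged from 0 to 0 in each direction. With every probe set tested, 0 were called higher and 0 lower of the 10 and 0 of all genes, with 5 of the 10 at an unadjusted p under 0.05 (24.7% of all genes) and adjusted p-values of 0.0841 for Myc and 0.106 for Mlx, 0.0924 for Mnt and 0.102 for Mga. These fits ended all 29 calls given for Kdm2b, the network and the named genes of the lists. Under the other alternatives Myc, Mlx, Mnt and Mga kept their direction and calls, and Max joined them after quantile normalization, with dim genes removed, with an intensity trend and at an adjusted p under 0.1.

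Of the 25 uncalled differences of the network and of the named genes, 6 changed sign when 1 array was left out (34 of 156 over the network and all lists), with ranges of -0.005 to 0.105 for Mxd4, -0.15 to 0.14 for Mycl, -0.05 to 0.01 for Ppp2ca, -0.025 to 0.105 for Plk1, -0.02 to 0.22 for Gadd45b and -0.175 to 0.215 for Mael. With each array centred on its median, which moved the median of all genes to -0.01, Mlxip was -0.01 and Mael -0.02. That centring gave list medians of 0.0025 (other network genes), -0.0025 (cofactors), -0.06 (turnover), -0.015 (PRC1.6), 0 (Myc-activated), -0.105 (Myc-repressed) and -0.225 (Mlx and Mondo targets). Quantile normalization gave 0.0544 for cofactors and -0.0012 for turnover, and removal of dim genes -0.1075 for Myc-repressed genes. Moves within the spread between replicates included germline genes, at 0.0175 with dim genes removed and 0.045 after centring, and PRC1.6, at 0.0419 after quantile normalization. With 1 array left out the medians ran as follows: other network genes 0.0325 to 0.07, cofactors 0.0425 to 0.0775, turnover -0.04 to 0, PRC1.6 -0.01 to 0.035, germline genes 0 to 0.185, Myc-activated genes 0.035 to 0.085, Myc-repressed genes -0.105 to -0.025, Mlx and Mondo targets -0.195 to -0.1375, LIF and Wnt inputs -0.03 to 0.025. The causes were not tested.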

Other observations

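LIF and Wnt signalling are known to sustain Myc in mouse stem cells, and 11 genes of these pathways were measured. Of these, 1 was higher, 1 lower and 9 neither, beside 5.00% higher and 7.19% lower among all genes, with a median log2 difference of -0.035, beside 0.03. An unadjusted p under 0.05 (limma) was found for 4 of the 11, beside 29.8% of all genes. Il6st, which encodes the gp130 co-receptor for LIF, had log2 values of 11.62 and 11.67 in knockdown against 12.31 and 12.18 in control cells, and fell by 0.60 (SE 0.0719, adjusted p = 0.01, limma). Lef1, a transcription factor of the Wnt pathway, had 9.83 and 9.63 in knockdown against 9.00 and 8.86 in control cells, and rose by 0.80 (SE 0.0926, adjusted p = 0.0092, limma). The groups were 0.51 apart for Il6st and 0.63 apart for Lef1. Stat3, the transcription factor downstream of LIF, had a difference of -0.265 and an adjusted p of 0.11, and Ctnnb1, which encodes beta-catenin, a difference of 0.085.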
